A study of Mus musculus with 9 samples.

Results

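The genes described here are the receptors for tumour necrosis factor (TNF), TNF itself and the proteins that turn receptor binding into cell death. They are Tnfrsf1a, Tnfrsf1b, Tnf, Tradd, Fadd, Ripk1, Ripk3, Mlkl, Casp8 and Cflar, 10 of the 57010 genes in the deposited count table, chosen by name for their known roles. These genes and the lists used below were chosen with earlier results of these data known. Counts set beside shares over all genes are therefore a description. All 10 had enough counts to be tested, among 14747 tested genes. Kidneys of wild-type mice were digested with enzymes and their cells grown in primary culture, replated, treated for 6 h and sequenced as RNA. There were 3 libraries in each of 3 groups, which received PBS, TNFα at 20 ng/mL (TNF), or the same dose of TNFα together with 1 µM ACHP (TNF plus ACHP). ACHP inhibits the IkB kinase and was used by the submitters to block NF-kB, and no group received ACHP alone. The labels give neither strain nor age, and do not say whether replicates came from separate animals or cultures, so p-values here measure the spread among these libraries, which may be technical. The question put to the data was whether blocking NF-kB shifts the transcripts of this pathway toward those of cell death.

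Binding of TNF to its receptor, encoded by Tnfrsf1a, assembles a membrane complex through the adaptor TRADD and the kinase RIPK1, and ubiquitin chains on this complex lead to NF-kB and MAP kinase signalling. RIPK1 can leave the membrane and join FADD and caspase-8 in a complex that starts apoptosis, which is held in check by cFLIP, the product of Cflar and a known NF-kB target. Where caspase-8 is inactive, RIPK1 can engage RIPK3, which phosphorylates MLKL, and MLKL ruptures the membrane in necroptosis. Proteins of this pathway are also regulated by changes such as cleavage, ubiquitin or phosphate, which transcript counts do not show.

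Total counts per library lay between 14194295 and 20892176. Epithelial markers of the kidney were abundant in every library (a summed level of 4760 to 5390 CPM for 9 genes such as Pax8 and Epcam, where CPM is a count scaled to library size with TMM factors). Slc22a6 of the proximal tubule list and Aqp2 of the collecting duct list had no counts in any group. In PBS 7 of 8 genes of each list had counts, with sums of 44.4 to 48.3 and 103 to 108 CPM. In both groups given TNF 5 of 8 proximal tubule genes and 7 of 8 collecting duct genes had counts. The sums of these 2 lists were lower than in PBS, at 30.4 to 34.8 and 75.4 to 84.3 CPM under TNF. Under TNF plus ACHP they were 32.9 to 36.2 and 85.0 to 92.2 CPM. Of the 9 epithelial genes with Pax8 and Epcam, 5 were higher under TNF plus ACHP than under TNF and 0 lower (median log2 fold change 0.17). Over all tested genes 2.71% were higher and 4.46% lower. Vcam1, the reference for the TNF response, averaged 19.2 ± 1.30 CPM in PBS, 93.0 ± 6.99 under TNF and 21.1 ± 2.78 under TNF plus ACHP (SD, n = 3). Nfkbia, which encodes the inhibitor IkBα and is an NF-kB target, averaged 37.4, 82.7 and 50.0 CPM, and stayed above PBS under TNF plus ACHP (log2 fold change 0.42, edgeR adjusted p = 0.00027). Transcripts of neurons were unevenly spread. Scaled to total counts without TMM factors, a list of 18 neuron genes summed to 23.2, 126.5 and 104 CPM in PBS replicates 1, 2 and 3. On the same scale it summed to 52.6 to 86.8 CPM under TNF, and to 20.8 to 22.4 CPM under TNF plus ACHP. TNF plus ACHP therefore differs from TNF in neural transcripts as well as in treatment, and the treatment and this difference cannot be told apart in that comparison. PBS replicate 1 is near TNF plus ACHP in these transcripts. PBS replicates 2 and 3 are, with the TNF libraries, among the 5 highest, but both lie above every TNF library. A term marking the 5 libraries rich in these transcripts (the neural term) was added to the fit as an alternative.

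Of the 10 genes, Tnf and Fadd rose with TNF, Tnf and Tnfrsf1b were lower when ACHP was added, and none was called against PBS under TNF plus ACHP. A gene was called at an adjusted p under 0.05 over all 14747 genes, by edgeR's quasi-likelihood test with Benjamini-Hochberg adjustment. For TNF versus PBS this gave 2 of 10 higher and 0 lower, where 3.31% of all tested genes were called higher, 2.91% lower and 6.22% either way. For TNF plus ACHP versus TNF it gave 0 higher and 2 lower, against 2.71%, 4.46% and, either way, 7.17% of all genes. For TNF plus ACHP versus PBS it gave 0 of 10, against 2.18% of all genes called higher, 3.87% lower and 6.04% either way, although 3 of the 10 (Tnfrsf1b, Fadd and Cflar) had an unadjusted p under 0.05 and DESeq2 also called 0. Counted by libraries alone, 5 of the 10 (Tnf, Fadd, Ripk1, Mlkl and Cflar) had every TNF library above every PBS library and 0 the reverse, against 12.3% and 11.5% of all genes. Every library with ACHP lay below every TNF library for 4 (Tnfrsf1b, Tnf, Ripk1 and Mlkl) and above for 0, against 13.3% and 12.4%. Against PBS, 3 (Tradd, Fadd and Cflar) lay wholly higher and 0 lower, against 10.7% and 9.94%. Any difference among the 3 groups was called for Tnf, Tnfrsf1b and Fadd (edgeR adjusted p = 0.00044, 0.0053 and 0.041), 3 of 10, against 11.4% of all genes. The median log2 fold change of the 10 genes was 0.16, -0.08 and 0.03 in the 3 comparisons, beside 0.00, 0.00 and 0.01 over all genes (the second comparison shares the TNF libraries with the first and the third shares PBS with it).

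**Figure D1:**
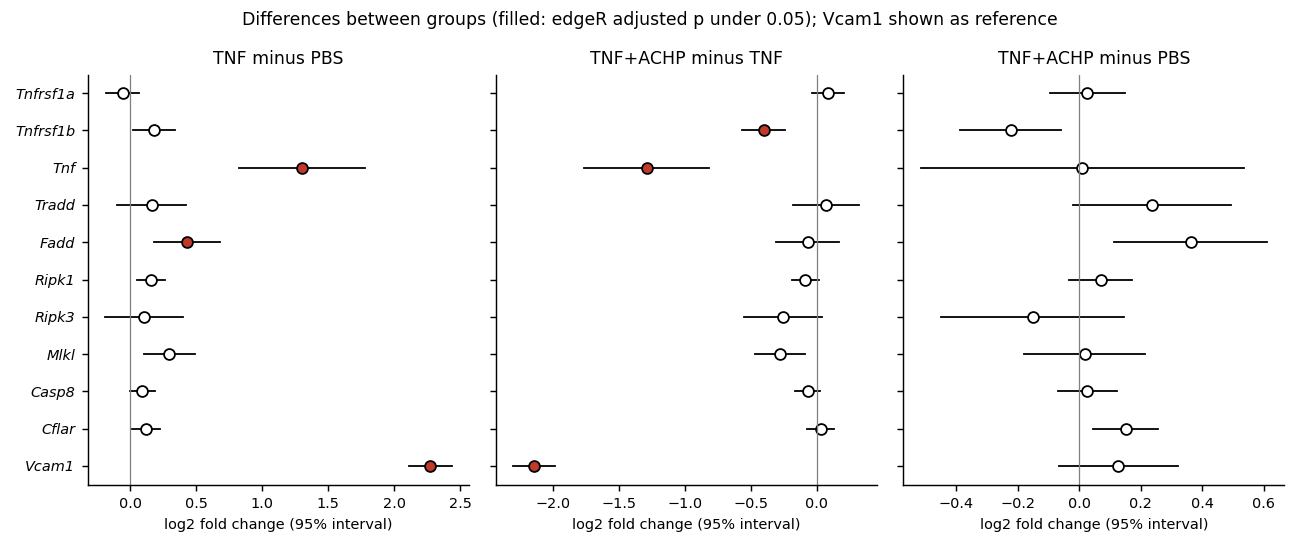
Log2 fold change with its 95% interval for each gene (rows) in the 3 comparisons (panels, whose x axes differ in scale), filled where the edgeR adjusted p is under 0.05, with Vcam1 as a reference. Tnf moves by 1.30 and -1.29, Vcam1 by 2.27 and -2.15, and the kinases, caspase-8 and Cflar lie within 0.30 of 0 throughout.

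Upstream sequence is shown for Tnf and Tnfrsf1b, the pair called lower when ACHP was added to TNF. A link between sites in this sequence and the lower levels was not tested. RefSeq windows on GRCm38.p6, 250 bases before to 50 after the annotated start, were found for 9 of the 10 genes (10 windows, since Ripk1 has 2) and searched on both strands for a loose form of the NF-kB site, which is GGG and CC with any 5 bases between, and for a stricter form, which is GGGA, any base and then TTTCC. The bases before the start are printed, in gene orientation, with matches to the loose form in capitals. They lie on the minus strand of GRCm38.p6, at chr17:35202008-35202257 for Tnf and chr4:145246871-145247120 for Tnfrsf1b.
Tnf: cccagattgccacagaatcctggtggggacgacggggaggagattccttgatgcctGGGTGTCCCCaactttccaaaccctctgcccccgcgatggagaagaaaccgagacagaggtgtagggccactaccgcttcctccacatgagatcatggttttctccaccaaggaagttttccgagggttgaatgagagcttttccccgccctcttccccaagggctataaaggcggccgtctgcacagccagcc
Tnfrsf1b: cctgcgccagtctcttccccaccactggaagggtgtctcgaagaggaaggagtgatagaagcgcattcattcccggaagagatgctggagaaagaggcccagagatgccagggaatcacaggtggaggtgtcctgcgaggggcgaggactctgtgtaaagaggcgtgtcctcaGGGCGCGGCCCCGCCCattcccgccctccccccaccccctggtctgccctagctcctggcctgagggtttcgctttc
In Tnf the capitals start 194 bases before the start and match on both strands. In Tnfrsf1b they cover 3 overlapping matches. The loose form was present in 6 of the 10 windows of these genes and in 50.8% of all 32851 windows, and the strict form in 0 of 10 and in 0.411% of all windows. Sites outside these windows were not searched.

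Tnf, the ligand (ENSMUSG00000024401, chromosome 17, 35418357 to 35420983, GRCm39), was the member with the largest response. Its counts were low, at 19, 29 and 35 in the PBS libraries, 79, 68 and 50 under TNF, and 29, 34 and 24 under TNF plus ACHP. Scaled to library size these were 1.34, 1.62 and 1.89 CPM in PBS, 4.34, 4.53 and 3.20 under TNF and 1.78, 1.62 and 1.53 under TNF plus ACHP. Every TNF library was above all 6 others, and the PBS and TNF plus ACHP libraries overlapped. The rise with TNF was 2.46-fold (95% interval 1.77 to 3.43, log2 fold change 1.30, SE 0.23, edgeR adjusted p = 0.0012). With ACHP added the level was 0.409 of that under TNF (0.294 to 0.568, log2 fold change -1.29, SE 0.23, edgeR adjusted p = 0.0012). The log2 difference between TNF plus ACHP and PBS was 0.01 (edgeR adjusted p = 0.99), with an interval of 0.699 to 1.45 on the fold scale. Against PBS replicates 2 and 3 alone, whose neuron transcripts were higher than those of TNF, the rise with TNF was 1.19 (edgeR adjusted p = 0.0044). With the neural term the fall with ACHP was -0.90 and lost its call (SE 0.48, edgeR adjusted p = 0.46), in a fit where the size of the term rests on PBS replicate 1.

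Macrophage transcripts moved with Tnf in the comparison of TNF plus ACHP versus TNF. A list of 17 macrophage and dendritic cell genes summed to 45.2 to 49.3 CPM in PBS, 48.5 to 51.3 under TNF and 26.2 to 28.8 under TNF plus ACHP. Of its 12 genes tested, 8 were lower under TNF plus ACHP than with TNF and 0 higher, beside 4.46% and 2.71% of all genes. The median log2 fold change of the list was -2.44. All 17 had counts in each group, but C1qa, a defining complement gene of tissue macrophages, had 36, 11 and 22 counts with TNF and 2, 3 and 1 under TNF plus ACHP. Cd14 and Cd68, which are less restricted, had 169, 149 and 154 and 81, 73 and 84 counts with TNF and 146, 188 and 162 and 81, 76 and 71 under TNF plus ACHP. In bulk counts fewer cells of a type and less RNA per cell cannot be told apart, and the part of macrophage RNA in the lower Tnf was not tested. With TNF versus PBS the same list had 0 of 12 genes called by edgeR (4 at an unadjusted p under 0.05, median 0.09), beside 6.22% of all genes. It had 0 called of the 6 for which DESeq2 gave an adjusted p, while Tnf was 2.46-fold higher.

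**Figure D2:**
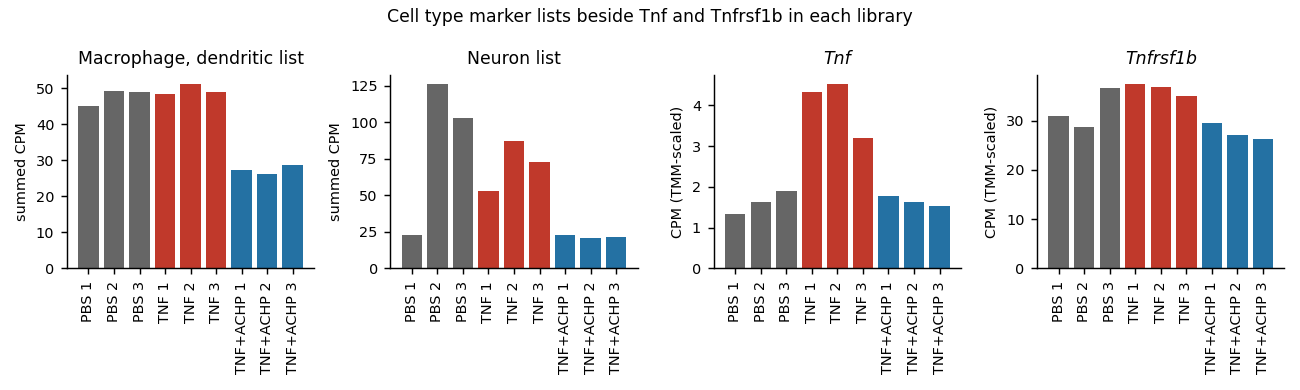
Summed level of the macrophage and dendritic cell list and of the neuron list (CPM), and the level of Tnf and Tnfrsf1b (CPM), in each of the 9 libraries, coloured by group. The macrophage list is at 26.2 to 28.8 CPM in the 3 libraries with ACHP and at 45.2 or more elsewhere, the neuron list is also low in PBS replicate 1, and Tnf is high only in the 3 TNF libraries.

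Of the receptors, Tnfrsf1b was called lower with ACHP and Tnfrsf1a was not called in any comparison, and the difference between them was not tested. Tnfrsf1a, the widely expressed receptor that carries a death domain (ENSMUSG00000030341, chromosome 6, 125326325 to 125339447), varied little. It had 52.7, 53.6 and 54.9 CPM in PBS, 52.9, 51.9 and 50.0 under TNF and 49.0, 57.3 and 57.6 under TNF plus ACHP. All groups overlapped, and the changes were -0.06 with TNF (interval -0.18 to 0.06, edgeR adjusted p = 0.67) and 0.09 with ACHP added (-0.04 to 0.21, edgeR adjusted p = 0.45). These intervals end at 1.15-fold upward and at 0.881 of the reference downward. Tnfrsf1b, the second receptor, which lacks a death domain and is prominent on immune and endothelial cells (ENSMUSG00000028599, chromosome 4, 144940033 to 144973440), had 31.0, 28.8 and 36.7 CPM in PBS, 37.5, 36.8 and 35.0 under TNF and 29.5, 27.2 and 26.2 under TNF plus ACHP. Every library with ACHP was below every TNF library, and PBS overlapped both groups. The fall with ACHP was to 0.757 of the TNF level (0.677 to 0.848, log2 fold change -0.40, SE 0.08, edgeR adjusted p = 0.0028). The difference between TNF and PBS was 0.18 (0.02 to 0.34, edgeR adjusted p = 0.20), and between TNF plus ACHP and PBS it was -0.22 (-0.39 to -0.06, edgeR adjusted p = 0.11). PBS replicate 3, the highest of its group, weighed on both, since without it TNF versus PBS was 0.29 (edgeR adjusted p = 0.016) and TNF plus ACHP versus PBS was -0.11 (edgeR adjusted p = 0.44), while without PBS replicate 2 the latter was -0.31 (edgeR adjusted p = 0.036). With the neural term the fall with ACHP was -0.32 and lost its call (SE 0.14, edgeR adjusted p = 0.36). The macrophage list fell in the same comparison, and its part in the Tnfrsf1b value was not tested.

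**Figure D3:**
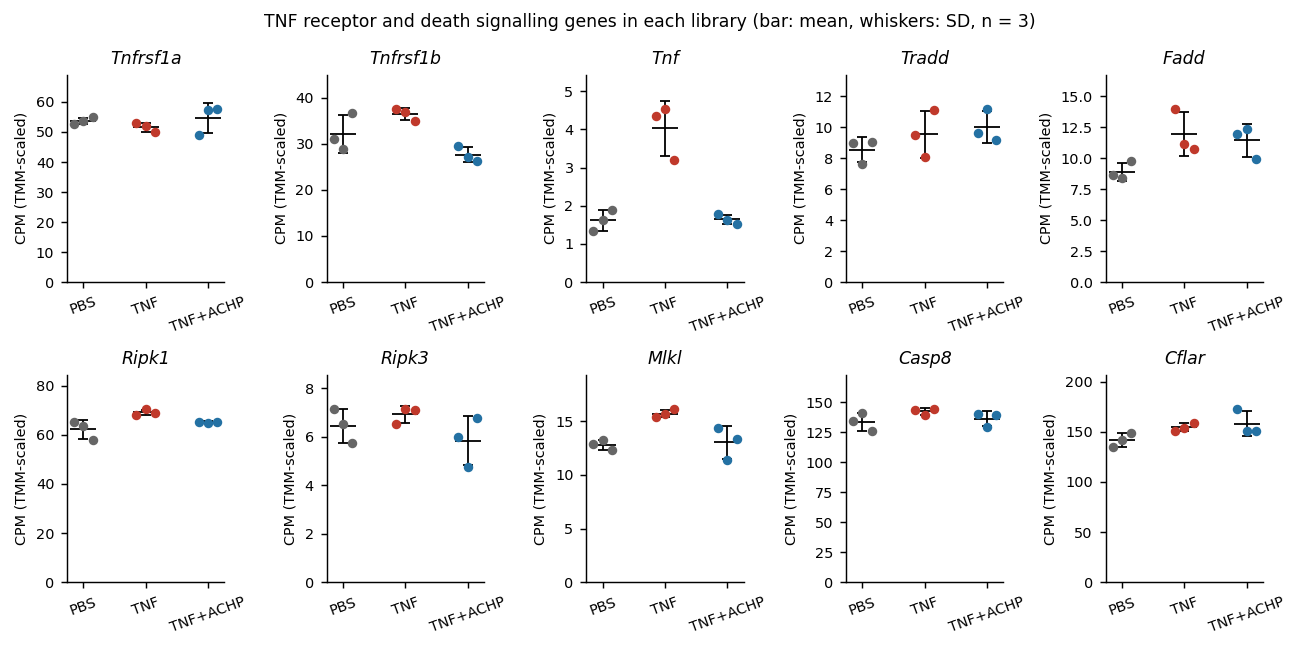
Level of each of the 10 genes (CPM, y axes from 0) in each library, with group mean and SD (n = 3). Tnf, at 3.20 to 4.53 CPM with TNF and at most 1.89 elsewhere, separates clearly, Tnfrsf1b is lower with ACHP than with TNF, and the groups of Tnfrsf1a and Casp8 overlap.

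The adaptors of the death complex were expressed at low levels. Fadd, which bridges the receptor complex and caspase-8 (ENSMUSG00000031077, chromosome 7, 144131055 to 144136200, 6.12% of its exon length shared with the antisense gene Faddos), had 8.61, 8.36 and 9.74 CPM in PBS, 13.9, 11.1 and 10.8 under TNF and 11.9, 12.4 and 9.94 under TNF plus ACHP. Both TNF groups lay wholly above PBS and overlapped each other. The rise with TNF was 1.35-fold (1.13 to 1.60, log2 fold change 0.43, SE 0.12, edgeR adjusted p = 0.037). With TNF and ACHP the difference from PBS was of like size, 0.36 (0.11 to 0.61, edgeR adjusted p = 0.080), without a call, and adding ACHP to TNF gave -0.07 (-0.30 to 0.17, edgeR adjusted p = 0.81). The call for Fadd was lost with DESeq2 (adjusted p = 0.088), with the neural term (edgeR adjusted p = 0.068), and without PBS replicate 1, PBS replicate 2, TNF replicate 1 or TNF replicate 2 (edgeR adjusted p = 0.071, 0.12, 0.27 and 0.062), although the fold change stayed between 0.29 and 0.51 on the log2 scale without any library. Tradd, the adaptor that recruits RIPK1 to the death-domain receptor (ENSMUSG00000031887, chromosome 8, 105984918 to 105991241), had 7.64 to 9.04 CPM in PBS, 8.06 to 11.1 under TNF and 9.18 to 11.2 under TNF plus ACHP. Its changes were 0.16 with TNF and 0.07 with ACHP added (edgeR adjusted p = 0.54 and 0.80), and the interval of the first reached 1.34-fold.

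Among the kinases and the executor of necroptosis no change passed the test, and Mlkl and Ripk1 came closest. Mlkl, which forms the membrane-rupturing oligomer (ENSMUSG00000012519, chromosome 8, 112038429 to 112064809), had 12.8, 13.2 and 12.3 CPM in PBS, 15.4, 15.7 and 16.1 under TNF and 14.3, 11.4 and 13.3 under TNF plus ACHP. The TNF libraries stood above all others, with no overlap. The difference was 0.30 with TNF (interval 0.10 to 0.49, edgeR adjusted p = 0.063) and -0.28 with ACHP added (-0.47 to -0.09, edgeR adjusted p = 0.072). A fit of only the PBS and TNF libraries called the first (edgeR adjusted p = 0.042), and leaving out TNF plus ACHP replicate 1 called the second at -0.36 (edgeR adjusted p = 0.033). Each was the only call, among 16 and 15 alternatives at an adjusted p under 0.05. DESeq2 called neither (adjusted p = 0.20 and 0.29). The second was -0.18 without TNF plus ACHP replicate 2 (edgeR adjusted p = 0.36) and -0.29 with the neural term (edgeR adjusted p = 0.53). Ripk1, the kinase at the branch point of survival and death (ENSMUSG00000021408, chromosome 13, 34186346 to 34221130, 9.01% of its exon length shared with Serpinb6a and Gm17084), had 65.4, 63.4 and 57.7 CPM in PBS, 68.1, 70.3 and 69.0 under TNF and 65.3, 64.7 and 65.1 under TNF plus ACHP. TNF again lay above both other groups, by 0.16 over PBS (0.05 to 0.26, edgeR adjusted p = 0.068), while ACHP added to TNF gave -0.09 (-0.19 to 0.02, edgeR adjusted p = 0.34). Against PBS replicates 2 and 3 alone the first of these was called, at 0.19 (edgeR adjusted p = 0.036). Of 16 alternatives at an adjusted p under 0.05, 2 called it. Without PBS replicate 3, the lowest of its group, it was 0.11 (edgeR adjusted p = 0.27), and against PBS replicate 1 alone it was 0.08. DESeq2 did not call it (adjusted p = 0.15). Ripk3, the kinase that activates MLKL (ENSMUSG00000022221, chromosome 14, 56022452 to 56026322), had only 98 to 119 counts per library. It had 5.74 to 7.13 CPM in PBS, 6.53 to 7.13 under TNF and 4.77 to 6.76 under TNF plus ACHP, with all groups overlapping. Its difference with ACHP added was -0.26 (-0.55 to 0.04, edgeR adjusted p = 0.33).

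Casp8 and Cflar, the protease that starts apoptosis and its catalytically inactive relative that restrains it, neighbour each other on chromosome 1 (58834533 to 58886662 for Casp8, ENSMUSG00000026029, and 58750667 to 58798043 for Cflar, ENSMUSG00000026031). Casp8 had 135, 141 and 126 CPM in PBS, 144, 139 and 144 under TNF and 140, 129 and 139 under TNF plus ACHP, with overlap among all groups. Its differences were 0.09 with TNF (interval -0.0039 to 0.19, edgeR adjusted p = 0.29) and -0.07 with ACHP added (-0.16 to 0.03, edgeR adjusted p = 0.45), and the first interval ends at 1.14-fold. Cflar had 135, 142 and 149 CPM in PBS, 151, 154 and 159 under TNF and 172, 151 and 151 under TNF plus ACHP. Both groups with TNF lay just above PBS and overlapped each other. The difference was 0.12 with TNF (0.02 to 0.23, edgeR adjusted p = 0.19), 0.15 under TNF plus ACHP over PBS (0.05 to 0.26, edgeR adjusted p = 0.086) and 0.03 with ACHP added to TNF (-0.07 to 0.13, edgeR adjusted p = 0.80). The last interval ends at 0.950 of the TNF level on its lower side. Without PBS replicate 3 the difference of TNF plus ACHP over PBS was called, at 0.19 (edgeR adjusted p = 0.032). Of 16 alternatives at an adjusted p under 0.05, 2 called it. Without TNF plus ACHP replicate 1, the highest library, it was 0.08 (edgeR adjusted p = 0.38), and without PBS replicate 1 it was 0.11 (edgeR adjusted p = 0.27). DESeq2 did not call it (adjusted p = 0.11). The long and short forms of cFLIP, which differ in activity, are 1 gene in the table and were not separated.

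Ratios within a library give the balance without regard to library scaling. Per kilobase of exon, the log2 ratio of Cflar to Casp8 was -2.13, -2.12 and -1.89 in PBS, -2.06, -1.99 and -1.99 under TNF, and -1.83, -1.91 and -2.02 under TNF plus ACHP. The groups overlapped, and the means differed by 0.03 with TNF and by 0.09 with ACHP added, where the pooled SD was 0.10 and 0.07. Leaving out PBS replicate 1 or 2 turned the first to -0.010 or -0.006, while the second stayed between 0.05 and 0.142 without any library. Ripk1 to Casp8 differed by 0.06 and -0.02 in these comparisons, with overlap, and the latter ran from -0.056 to 0.005 over left-out libraries. Ripk3 to Casp8 differed by 0.01 (-0.027 to 0.08 over left-out libraries) and -0.19 (pooled SD 0.10 and 0.15), also with overlap. Mlkl to Casp8 was -3.06 ± 0.03 in PBS, -2.85 ± 0.04 under TNF and -3.07 ± 0.11 under TNF plus ACHP (SD, n = 3), and the TNF group did not overlap the others. Fadd to Casp8 was -4.34 ± 0.20, -4.02 ± 0.20 and -4.02 ± 0.21, with overlap. With ACHP added to TNF the mean ratios of Ripk1, Ripk3 and Mlkl to Casp8 were lower and that of Fadd higher by 0.0025. No ratio was computed for Tradd and Tnfrsf1a, whose own differences with ACHP added were 0.07 and 0.09 beside -0.07 for Casp8, none of them called. These ratios are a description with no test.

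**Figure D4:**
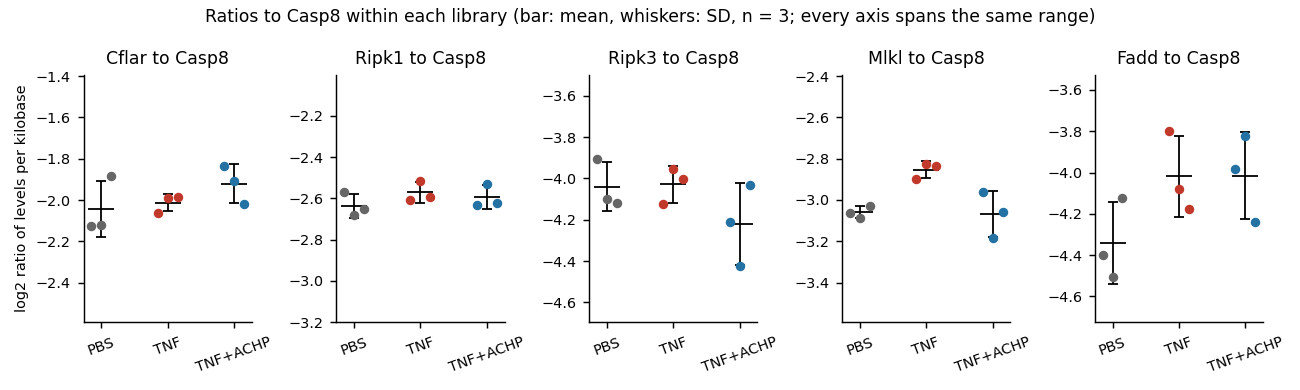
Log2 ratio of the level per kilobase of 5 genes to that of Casp8 in each library, with group mean and SD (n = 3), every axis spanning the same range. Mlkl to Casp8 is higher with TNF than in both other groups, by 0.21 over each, and the other ratios overlap between groups.

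Casp8 had the highest level per kilobase of exon. It was at 47.5 CPM per kilobase over the 9 libraries, then Tnfrsf1a at 20.6 and Cflar at 12, and the ranges of these 3 did not overlap. Tnfrsf1b (8.40) and Ripk1 (7.84) overlapped, Mlkl (6.00) overlapped Tnfrsf1b, Ripk1 and Tradd (5.02), and Ripk3 (2.80) and Fadd (2.76) overlapped each other. Tnf was last at 1.48, with a range of 0.818 to 2.76 that overlapped those of Ripk3 and Fadd. Cflar is annotated with 12669 exon bases over all its transcripts, so its level per kilobase understates a shorter transcript.

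The genes whose pattern over the 9 libraries was most like that of Tnf, among 10160 genes at a mean of at least 5 CPM, were Rap1b (Pearson r = 0.985), Stk17b (0.976) and Rhof (0.973). Stk17b, a kinase of the death-associated family, had means of 94.1, 151 and 97.9 CPM in PBS, TNF and TNF plus ACHP. For Tnfrsf1b the nearest were Rnf150, Plk4 and Kpna4 (0.922 to 0.935) and for Fadd Ywhaq, Pxdn and Mto1 (0.905 to 0.919). These are the highest of all the values computed, over libraries that share their treatments, given as a description.

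The rest of the pathway was followed in 83 genes of 8 lists, of which 72 were tested. With TNF 11 were higher and 1 lower, and 60 had no call, where 3.31% and 2.91% of all genes were called. With ACHP added 12 were lower, 2 higher and 58 without a call, beside 4.46% lower and 2.71% higher over all genes. Against PBS, TNF plus ACHP had 3 of 72 higher and 1 lower, which is near the 2.18% and 3.87% of all genes. With the neural term these counts were 11 and 1, 6 lower and 0 higher, and 0, and against PBS replicates 2 and 3 alone the counts with TNF were also 11 and 1.

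Among the 7 deubiquitinases and binding proteins of the receptor complex 3 rose with TNF, beside 3.31% of all genes. The same 3 were lower with ACHP, beside 4.46%, and stayed so with the neural term. Tnfaip3, whose product A20 edits ubiquitin on RIPK1, went from 87.6 ± 1.64 to 169 ± 3.17 CPM and to 95.01 ± 2.67 with ACHP (SD, n = 3, log2 fold change 0.95 and -0.83, SE 0.04 for both, edgeR adjusted p = 2.0e-12 and 1.8e-11). Tnip1, which binds A20 and ubiquitin, changed by 0.55 with TNF and by -0.42 with ACHP, and Tank, an adaptor of TBK1, by 0.33 and -0.34. Otud7b, a deubiquitinase, was higher with ACHP by 0.20 (edgeR adjusted p = 0.0047), without a call with the neural term. The list median was 0.08 with TNF and -0.06 with ACHP added.

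Of the 17 ubiquitin ligases and kinases of the complex, 3 rose with TNF and 3 were lower with ACHP, beside 3.31% and 4.46% of all genes. The list medians were 0.00 and -0.02. Birc3, encoding the ligase cIAP2 that ubiquitinates RIPK1 and restrains death, went from 35.1 ± 0.49 to 58.4 ± 1.71 and 39.8 ± 1.45 CPM (log2 fold change 0.73 and -0.55, edgeR adjusted p = 1.4e-08 and 6.1e-07). Birc2, encoding cIAP1, changed by 0.35 and -0.22 (edgeR adjusted p = 0.00048 and 0.018), the latter without a call with the neural term (-0.38, edgeR adjusted p = 0.073) and without TNF replicate 1, TNF replicate 2 or TNF plus ACHP replicate 3 (edgeR adjusted p = 0.068, 0.11 and 0.087). Ikbke, a kinase that phosphorylates RIPK1 in the complex, changed by 0.55 and -0.52. In the ligase and kinase list none of the 17 genes was called against PBS by edgeR or DESeq2 when ACHP was present. Of all genes edgeR called 6.04% there, and 3 of the 17 had an unadjusted edgeR p under 0.05.

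Downstream, 2 of 14 caspase and apoptosis genes rose with TNF and 1 was lower with ACHP, beside 3.31% and 4.46% of all genes. The list medians were 0.03 and -0.02. Bid, the BH3 protein that caspase-8 cleaves, went from 56.7 ± 1.59 to 67.0 ± 1.06 CPM with TNF and back to 56.8 ± 1.08 with ACHP (log2 fold change 0.24 and -0.24, edgeR adjusted p = 0.0024 for both), the fall without a call with the neural term (-0.21, edgeR adjusted p = 0.33). Htra2, a mitochondrial protease released in apoptosis, was above PBS under TNF plus ACHP by 0.32 at the edge of the threshold (edgeR adjusted p = 0.049). That call was lost with DESeq2 (adjusted p = 0.16) and without PBS replicate 1, 2 or 3 or TNF plus ACHP replicate 2 or 3 (edgeR adjusted p from 0.062 to 0.29). Of 10 further necroptosis genes 9 were tested and 0 were called by edgeR or by DESeq2 in any comparison. Over all genes edgeR called 6.22%, 7.17% and 6.04% either way in the 3 comparisons. An unadjusted edgeR p under 0.05 was found for 0 of the 9 with TNF, 1 with ACHP added and 2 against PBS. The median of these necroptosis genes was 0.00 with TNF and 0.10 with ACHP added. Neither this list nor the apoptosis list was split into genes that promote and genes that restrain death. Their medians therefore give no direction toward or away from death. Zbp1, a sensor that activates RIPK3, had too few counts to be tested (19 over all libraries).

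Beside 3.31% of all genes called higher with TNF and 4.46% lower with ACHP, 2 of 11 receptors tested rose and 2 were lower. These were Cd40, a costimulatory receptor, at 18.4 ± 1.30, 31.2 ± 2.95 and 21.2 ± 2.13 CPM in the 3 groups (log2 fold change 0.77 and -0.57, edgeR adjusted p = 7.3e-06 and 0.00019), and Tnfrsf9, which encodes 4-1BB (0.76 and -0.77, the latter -0.405 with the neural term, edgeR adjusted p = 0.59). Tnfrsf12a, the receptor for TWEAK, was higher with ACHP than with TNF by 0.16 (edgeR adjusted p = 0.023), a call lost with the neural term (0.17, edgeR adjusted p = 0.37) and without TNF replicate 2, TNF replicate 3 or TNF plus ACHP replicate 3 (edgeR adjusted p = 0.12, 0.084 and 0.13). Tnfrsf10b, the mouse receptor for TRAIL, was above PBS under TNF plus ACHP by 0.15 (edgeR adjusted p = 0.029), a call absent with the neural term or without PBS replicate 1. Of 4 ligands tested Tnfsf15 was lower with ACHP than with TNF (log2 fold change -0.47, edgeR adjusted p = 0.0049, and 0.46 with the neural term), and Fasl had 1 count in all. Among 5 genes of receptor shedding, Timp3, an inhibitor of the TNF-releasing protease ADAM17, fell with TNF from 240 ± 13.99 to 192 ± 3.36 CPM (-0.32, edgeR adjusted p = 5.9e-05) and stayed below PBS with ACHP (-0.21, edgeR adjusted p = 0.0037, and -0.11 with an adjusted p = 0.36 against PBS replicate 1 alone).

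In the pyroptosis list 5 of 9 genes were tested. Il1b, a cytokine released through that route, was low, at 0.59 ± 0.12, 2.64 ± 0.55 and 0.40 ± 0.20 CPM in PBS, TNF and TNF plus ACHP. It had 182 counts over all libraries. Its changes were 2.15 with TNF and -2.66 with ACHP (edgeR adjusted p = 0.00054 and 9.6e-05). DESeq2 gave no adjusted p for the first of these, and in that comparison only 2 of the 5 genes had an adjusted p from DESeq2. Casp4, the mouse inflammatory caspase known as caspase-11, was at 1.49 ± 0.17, 2.28 ± 0.24 and 1.25 ± 0.18 CPM, and its lower level with ACHP (-0.88, edgeR adjusted p = 0.045) lost its call on leaving out each of the 6 TNF and TNF plus ACHP libraries in turn (edgeR adjusted p from 0.072 to 0.19). It was also lost with no filter on low counts (edgeR adjusted p = 0.058) and with DESeq2 (adjusted p = 0.17). With the neural term neither fall was called (Il1b -2.31, edgeR adjusted p = 0.25, and Casp4 -0.66, edgeR adjusted p = 0.65). Nlrp3 and Pycard of the inflammasome had too few counts to be tested. The macrophage list was also lower with ACHP added to TNF, and its part in the falls of Il1b and Casp4 was not tested. With TNF versus PBS, where Il1b rose, the median of that list was 0.09.

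**Figure D5:**
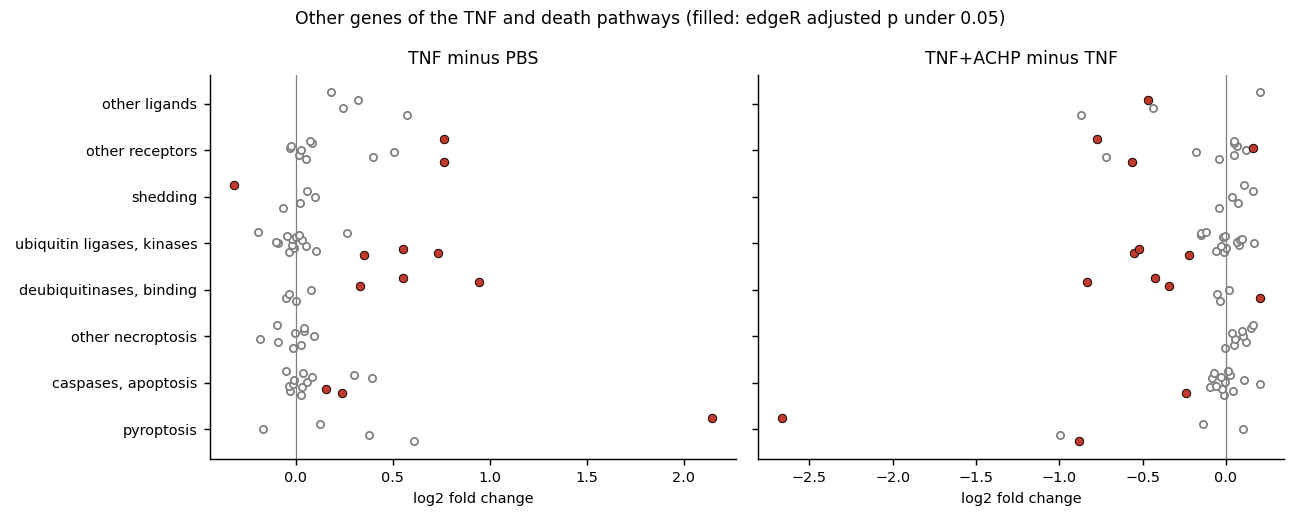
Log2 fold change of the 72 tested genes of 8 lists (rows) for TNF minus PBS and for TNF plus ACHP minus TNF, filled where the edgeR adjusted p is under 0.05. Over all 8 lists 11 of the 12 filled points lie to the right with TNF and 12 of the 14 to the left with ACHP, and the necroptosis row has none.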

How the data were processed

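Total RNA of 9 libraries was sequenced. The submitters' processing notes name STAR, featureCounts, DESeq2 and mm10. The deposited raw counts per gene, per the file headers, come from featureCounts 2.0.1 run without options for strand or shared reads and with the Ensembl 109 annotation of GRCm39, whose coordinates are given, so reads overlapping several genes or aligned to several places are missing and strand was not used. Groups and replicate numbers come from the titles. Symbols matched 52029 of 57010 identifiers (99.6% of counts). The deposited column of exon length, an other value of each gene, served for levels per kilobase.

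Tests used edgeR 4.0.16 with limma 3.58.1 in R 4.3.3 (filterByExpr, TMM, quasi-likelihood F test, a mean per group, all 9 libraries, common dispersion 0.00161), with DESeq2 1.42.0 as an alternative. Standard errors come from the F statistic, and intervals are at 95%. The fit was tested on simulated data. Replicates of each group differed by more than sampling noise (chi-square over its degrees of freedom 1.87 to 6.53). The members, lists, neural term and alternatives were chosen with earlier results of these data known. The rule named all 10 members and, from each list, the called genes of largest change, at most 3 and at 1 CPM or more, plus Vcam1 and Nfkbia as references and the 3 genes most like each member with any group difference. Otud7b, Tnfrsf10b, Zbp1, Fasl, Nlrp3 and Pycard were named after their values were seen. The values of 1 list gene that the rule named are not reported here. Depth limits members at low counts. Lists of astrocyte, oligodendrocyte, lymphocyte, endothelial, fibroblast and podocyte markers were also summed. Lymphocyte genes were at most 0.353 CPM in all. Over all genes 4.46% were lower and 2.71% higher for TNF plus ACHP versus TNF, and 2.91% and 3.31% for TNF versus PBS. Of the other lists, TNF plus ACHP versus TNF had 4 of 5 astrocyte, 3 of 4 oligodendrocyte, 3 of 7 fibroblast and 1 of 7 endothelial genes lower, and 1 of 4 podocyte genes higher, while TNF versus PBS had 2 of 4 proximal tubule, 5 of 6 collecting duct, 2 of 7 fibroblast and 2 of 4 podocyte genes lower and 1 collecting duct gene higher.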

Additional observations from a re-analysis of the deposited data

How the results depend on the processing

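Of 500 recomputed differences of the 10 genes, 459 kept their direction and their side of the threshold, 19 changed sign, 12 lost a call and 10 gained one. Tnf was called higher with TNF under each of the 16 alternatives at the same threshold (adjusted p up to 0.014). Every sign change concerned a difference with no call. With the neural term they were Fadd (0.007) and Tradd (-0.030) for ACHP added to TNF, and Ripk1 (-0.006) for TNF plus ACHP versus PBS. Tradd was -0.041 with the neuron level as a covariate, and with PBS replicate 1 alone Ripk1 was -0.006 and Ripk3 with TNF -0.044, on the assumption that a lone library varies like those of the other groups. Over the left-out libraries the ranges were -0.013 to 0.092 (Tnfrsf1a), -0.101 to 0.142 (Tnf), -0.064 to 0.115 (Mlkl) and -0.018 to 0.065 (Casp8) for TNF plus ACHP versus PBS, and -0.031 to 0.188 (Tradd), -0.136 to 0.066 (Fadd) and -0.036 to 0.062 (Cflar) for ACHP added to TNF.

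The number of these 10 genes called with TNF was 1, not 2, with DESeq2, with PBS replicate 1 alone and at an adjusted p under 0.01 (1 to 3 over left-out libraries). With ACHP added it was 0, not 2, with the neural term and with the covariate (2 to 3 over left-out libraries). Against PBS it was 3, not 0, with no filter on low counts (Cflar, Fadd, Tnfrsf1b), and 0 to 1 over left-out libraries. For any difference among the groups it was 3, but 5 with no filter and 1 with the neural term or the covariate (2 to 4 over left-out libraries).

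Over all genes, 917 were called with TNF, 1058 with ACHP added and 891 for TNF plus ACHP versus PBS. Left-out libraries gave 468 to 957, 541 to 1095 and 494 to 988. An adjusted p under 0.01 gave 442, 468 and 427. The neural term gave 143 with ACHP added and 162 against PBS, and the covariate 271 and 140. PBS replicate 1 alone gave 418 with TNF and 237 against PBS, and the 6 libraries of that comparison 493. Of the 72 pathway genes, those called with ACHP added went from 14 to 6 with the neural term, and those against PBS from 4 to 0 with it, to 0 with PBS replicate 1 alone and to 2 without it. The cause of these moves was not tested. The log2 ratios to Casp8 moved by less than the spread between replicates, although some near 0 changed sign.

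With the replicate number as a block the calls were 945, 1175 and 988, and no call on these 10 genes changed. Of the named pathway genes, Casp4 with ACHP added lost its call under the block (-0.88, edgeR adjusted p = 0.058). The numbers were not taken to pair the libraries: correlations of same-numbered libraries ran from -0.10 to 0.17, and libraries correlated best with their own number in 4, 3 and 0 of 6 cases.

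Tnf (19 to 79 counts per library) and Ripk3 (98 to 119) were the members with least depth.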
